A study of Mus musculus with 56 samples.

Results

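The IVTIII comparison of OV with 3T3 consisted of 4 of the 56 two-color arrays of the series, the 4 on which cRNA from both cell lines was hybridized together after linear amplification. The arrays were chosen by their titles, and each ratio was turned by the dye labels to OV over 3T3. Of 21766 probes left after removal of control probes, 4599 had a value on all 4 arrays, and these represented 3963 of the 15063 genes on the array.

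OV is a mouse ovarian surface epithelium cell line and 3T3 is a mouse fibroblast line, both grown in culture and both taken as 1 pool of total RNA. For IVTIII, 10 ng of total RNA per target was taken through 3 rounds of T7 in vitro transcription with the MessageAmp II kit, and the cRNA was labeled indirectly with Cy3 or Cy5. For the unamplified arrays, which served here as the reference, cDNA was made from 100 μg of total RNA of the same lines without amplification. On arrays 1 and 3 OV was in Cy5, and on arrays 2 and 4 it was in Cy3. The array records give the input as 10 μg where the series design and the methods give 10 ng, and the design and methods were followed. One record of array 1 names 3T3 in the second channel, while its description and labeling record name OV replica 1 there. By the methods the 4 arrays held 2 replicate amplifications of each RNA with dye swaps, but the labels do not say which arrays form a pair. P-values therefore measured only the spread between amplifications and hybridizations of 1 RNA pool per line.

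T7-based amplification copies RNA into cDNA with a primer that carries the promoter of the T7 RNA polymerase, which then transcribes each cDNA molecule into many antisense RNA copies. Because the template count is not doubled in cycles the method is called linear, and in repeated rounds, which are started with random primers, the product becomes shorter and is drawn toward the 3' end of the transcript. Ovarian surface epithelium is the mesothelium-like layer that covers the ovary and is known for Wt1, Gata factors, mesothelin and simple-epithelium keratins. Fibroblasts are known for collagens, vimentin and the mesenchymal factors Prrx1 and Twist1.

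The deposited value of an array is the log2 ratio of its dyes, so a value of 1 is a 2-fold difference, and no expression level of either line can be read from it. The ratio was taken as Cy5 over Cy3, which the sources leave unsettled. This direction is likely rather than certain, and its basis was the dye labels together with genes of the sex chromosomes and of a locus commonly deleted in 3T3 lines, which did not all point the same way. Xist, transcribed from the inactive X chromosome of female cells, had log2 ratios of 1.93, 1.02, 3.78 and 3.94 on the 4 IVTIII arrays, against 4.69, 3.58, 1.57 and 3.00 on the unamplified arrays. All 8 arrays were positive, with the IVTIII values of arrays 3 and 4 far above those of arrays 1 and 2. The Y-linked gene Eif2s3y was negative on all of them, at -0.69, -0.29, -0.29 and -0.32 in IVTIII and -0.58, -0.47, -0.69 and -1.03 in unamplified cDNA. The Y-linked genes Usp9y, Kdm5d and Uty had no IVTIII value, and on the unamplified arrays Usp9y was positive, at 0.68, 0.33, 0.80 and 0.66, Kdm5d was near 0, at 0.04, 0.06, -0.00 and -0.24, and Uty had 2 values, -0.05 and 0.09. Among these 4 genes only Eif2s3y was therefore lower in OV on all arrays that measured it, and Usp9y went against it. Neither Xist nor Eif2s3y was called in IVTIII, and the call of Xist depended on array 2, without which the LOD score was 1.28 instead of -0.45. Cdkn2a, the gene of the commonly deleted locus, had no value on any IVTIII array and ratios of 1.73, 1.47, 1.53 and 1.60 on the unamplified arrays.

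The marker lists of both lines were only partly measured by IVTIII. Over all genes, 11.9% were called higher and 10.8% lower in OV by IVTIII, and 8.88% and 7.45% in unamplified cDNA. Of 12 OV markers on the array, 6 had a value on all 4 IVTIII arrays, and 3 of them (Aldh1a1, Wt1 and Krt8) were called higher in OV, none lower. Their range was 0.04 to 2.74. In unamplified cDNA all 12 were measured, with 9 higher and 1 lower, the lower one being Krt18. Of 12 fibroblast markers, 5 were measured by IVTIII, all with negative ratios between -0.86 and -0.16, and none was called. In unamplified cDNA 9 were measured, of which 4 were lower in OV and 2 higher. Among other cell types, 2 of 18 immune markers, 1 of 14 endothelial and blood markers and 3 of 18 neural markers had IVTIII values. The only one called was Mbp, a myelin gene, at 0.69 ± 0.20 (SD, n = 4), and this call was lost when any 1 of the arrays was left out (LOD score -0.62 to -0.10). A further Mbp probe had 1 IVTIII value, -0.10 on array 1, where the probe used read 0.62.

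Fewer probes were measured by IVTIII than by the 3 PCR methods of the series that also started from 10 ng, or by unamplified cDNA. The 4 arrays had values for 7728, 7241, 6900 and 5667 probes, against 18274, 14198, 18018 and 17519 for unamplified cDNA. The mean of 6884 ± 880 for IVTIII (SD, n = 4) compared with 12184 ± 3120 for GA (PCR of polyadenylated cDNA), 14094 ± 3259 for SMART and 11072 ± 1253 for SM37 (template-switching PCR, standard and modified), and 17002 ± 1896 for unamplified cDNA. No array of any of these groups fell into the IVTIII range, and each of the 4 differences had an adjusted p of 0.0286 (exact two-sided permutation test, Benjamini-Hochberg over 4 tests), the smallest p that 4 against 4 arrays allow. These tests, and those of the CR, took dye-swapped arrays of 1 amplification as separate units, and with 2 amplifications against 2 no exact test could pass the threshold. On no IVTIII array was there a value for 12340 probes. The reason for a missing value is not given in the sources used here, and no spot intensities were analysed here. What limits the precision of a ratio was not tested.

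**Figure D1:**
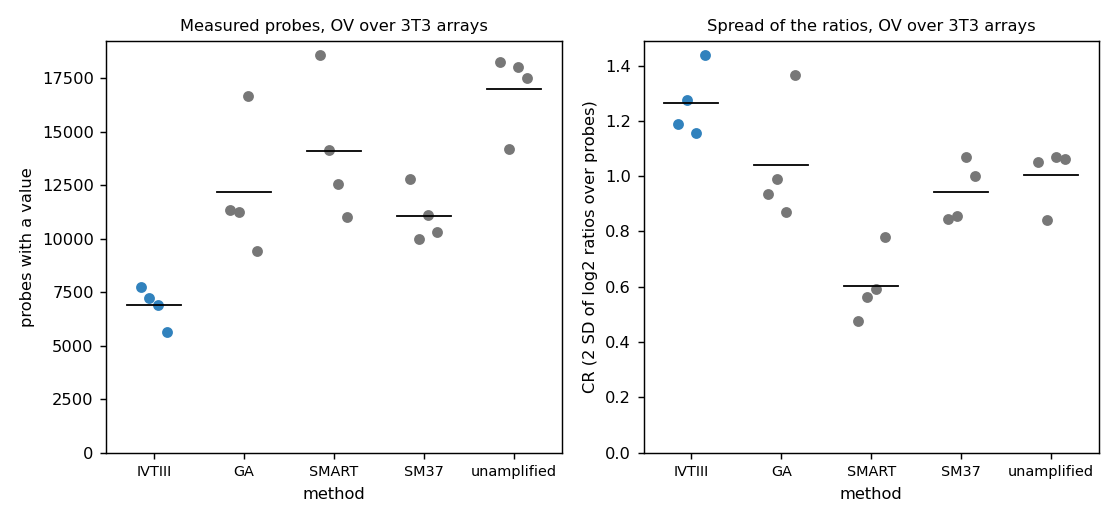
Probes with a value (left) and coefficient of repeatability, 2 SD of the log2 ratios over probes (right), for each OV over 3T3 array. Points are single arrays and lines are means of 4 arrays. All 4 IVTIII arrays lie below every array of the other methods in measured probes, from 5667 to 7728, and their CR of 1.16 to 1.44 lies above that of unamplified cDNA, 0.840 to 1.07.

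The ratios that were measured spread widely. The coefficient of repeatability (CR), 2 SD of the log2 ratios over the probes of an array, was 1.19, 1.28, 1.16 and 1.44 on the IVTIII arrays, against 1.05, 0.840, 1.07 and 1.06 on the unamplified arrays. The difference of the means of 1.27 ± 0.126 for IVTIII and 1.01 ± 0.111 for unamplified cDNA (SD, n = 4 each) had an adjusted p of 0.0381 (exact two-sided permutation test). IVTIII also exceeded SMART and SM37 at that adjusted p, and the difference from GA did not pass the threshold (adjusted p = 0.143). Over the probes measured by both, the CR of the averaged arrays was 1.33 for IVTIII and 1.18 for unamplified cDNA. On these probes single arrays gave 1.36, 1.43, 1.32 and 1.52 for IVTIII and 1.33, 0.994, 1.29 and 1.31 for unamplified cDNA. These ranges overlapped, and the CR over these probes was not tested. The tests above therefore compared arrays over unlike sets of probes.

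OV and 3T3 differed at 1010 of 4599 probes by IVTIII (22.0%), 526 higher (11.4%) and 484 lower (10.5%) in OV, when a probe was called at a LOD score above 0. The LOD score is the log odds, from the empirical Bayes fit of limma, that a probe differs. Averaged by gene, 902 of 3963 genes were called (22.8%), 473 higher (11.9%) and 429 lower (10.8%), and the genes below are given by this fit. In unamplified cDNA 1963 of 12866 probes were called (15.3%), 1053 higher (8.18%) and 910 lower (7.07%), and 16.3% of genes. The IVTIII count rested on treating the 4 arrays as independent. When arrays 1 and 2, and arrays 3 and 4, were averaged as assumed dye-swap pairs it fell to 610, of which 597 were among the 1010, and without array 2 it fell to 649.

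The genes with the highest OV over 3T3 ratios by IVTIII included markers of the ovarian surface and secreted factors. Bnc1, which encodes basonuclin, a zinc finger protein of keratinocytes and germ cells, had ratios of 3.27, 3.07, 2.79 and 3.60, a mean of 3.18 ± 0.34 (SD, n = 4; limma adjusted p = 9.72e-06). On the unamplified arrays its values were 2.96, 2.41, 2.58 and 2.27, and the lowest IVTIII array lay inside this range. Ccl2, a monocyte-attracting chemokine, stood at 2.70, 3.14, 2.79 and 3.02 by IVTIII, against 1.93, 1.31, 1.65 and 2.10 unamplified, without overlap. Tusc1 had 2.70, 2.88, 2.16 and 3.51 by IVTIII and values on 3 of the 4 unamplified arrays, 0.65, 0.50 and 0.40, so that the methods were not compared by the fit. Sfrp1, a secreted Wnt antagonist, had values of 2.68, 2.87, 2.44 and 3.03 by IVTIII and 1.36, 0.74, 0.99 and 1.48 unamplified. Its 4 IVTIII arrays were all above the unamplified ones, and the difference was 1.61 ± 0.18 (SE, limma adjusted p = 6.53e-05).

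Aldh1a1, a retinaldehyde dehydrogenase of the ovarian surface, was the least even of the high genes. Its IVTIII ratios were 2.12, 1.59, 3.30 and 3.93, with arrays 3 and 4 above arrays 1 and 2, and the unamplified ratios of 3.62, 3.23, 2.32 and 3.52 overlapped with them. Its call was lost without array 3 (LOD score -0.17) and with a term for the dye (-0.14). Among the remaining high genes were Ctla2a (2.62 ± 0.39), a cysteine protease inhibitor related to cathepsin propeptides, Crip1 (2.62 ± 0.35), a LIM domain protein, and Mgst1 (2.46 ± 0.67), a membrane-bound glutathione transferase. Pkib, an inhibitor of protein kinase A, averaged 2.37 ± 0.42 by IVTIII and 2.07 ± 0.25 unamplified (SD, n = 4 each), and the difference of 0.29 ± 0.20 (SE) did not pass the threshold (limma adjusted p = 0.256). Cmas, the enzyme that activates sialic acid, had 2.51, 2.14, 2.12 and 2.64 by IVTIII and 0.83, 0.87, 0.57 and 0.66 unamplified. The 2 groups of arrays stood well apart for this gene.

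Slc40a1, the iron exporter ferroportin, was high only by IVTIII, with ratios of 2.23, 2.78, 2.07 and 2.94 against 0.38, 0.24, 0.25 and 0.20 on the unamplified arrays. It was not called in unamplified cDNA, and the difference between the methods was 2.24 ± 0.18 (SE, limma adjusted p = 1.06e-05). Of the transferrin receptor Tfrc, which takes up iron, the 2 probes disagreed, at -2.32 and 0.24, and only the first was called. Several probes were measured for 70 genes, and no gene had probes called in opposite directions. For 67 genes with 2 probes the IVTIII means of the probes correlated at r = 0.441 with a median absolute difference of 0.58, whereas 498 genes with 2 probes in unamplified cDNA had r = 0.738 and 0.20, as a description across genes, which are not independent replicates. These sets of genes were not the same, so the r do not compare the methods over like genes. A gene represented by 1 probe, the usual case, carried no such check. Probes without a value on every array were left out, also where they differed from the probe used.

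**Figure D2:**
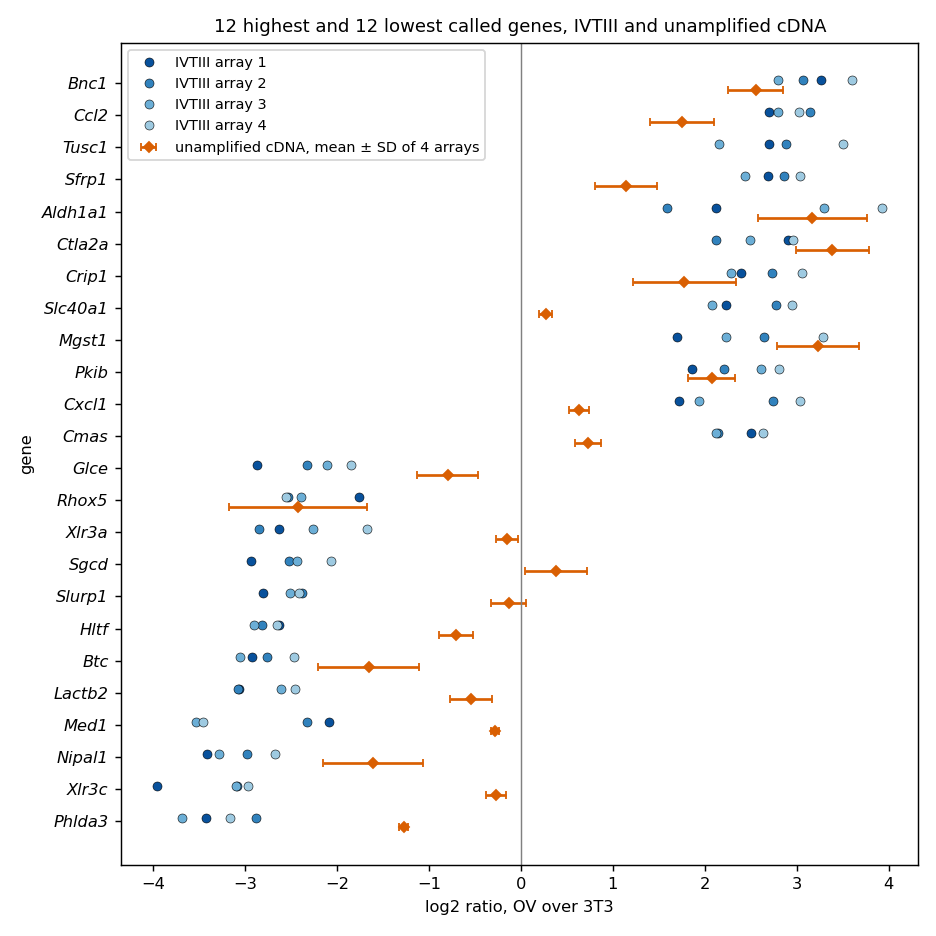
Log2 OV over 3T3 ratios of the 12 highest and 12 lowest genes called by IVTIII, genes known only by a clone name left out. Points in shades of blue are the single IVTIII arrays and orange diamonds are the mean ± SD of the 4 unamplified arrays over the same probes (not drawn for Tusc1, which has values on 3 of them). The IVTIII values keep 1 sign on all arrays, while the unamplified values of Slc40a1, Xlr3c, Sgcd, Slurp1, Xlr3a and Med1 lie near 0.

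Of the 12 lowest genes given here, 6 were not called in unamplified cDNA. Phlda3, a p53-induced inhibitor of Akt signaling, had ratios of -3.43, -2.88, -3.69 and -3.16 by IVTIII and -1.25, -1.31, -1.33 and -1.22 unamplified. Both groups were narrow and did not overlap, and the difference was -2.02 ± 0.16 (SE, limma adjusted p = 8.03e-06). Nipal1, a magnesium transporter, averaged -3.09 ± 0.33 and Btc, the EGF receptor ligand betacellulin, -2.80 ± 0.25, with unamplified means of -1.61 ± 0.54 and -1.66 ± 0.55. Hltf, a helicase-like chromatin factor, was tight over the IVTIII arrays at -2.63, -2.82, -2.91 and -2.65, and its unamplified arrays gave -0.78, -0.94, -0.59 and -0.53. Glce, an epimerase of heparan sulfate synthesis, averaged -2.29 ± 0.43 by IVTIII and -0.80 ± 0.33 unamplified. For these 5 genes the sign was shared by the methods and the IVTIII ratio was the larger in size. Like the highest genes, they were chosen on the IVTIII ratio, which by itself places them further from 0 in IVTIII.

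Rhox5, a homeobox gene of the X chromosome, overlapped between the methods, at -1.76, -2.53, -2.39 and -2.55 by IVTIII and -3.37, -1.57, -2.21 and -2.54 unamplified. The difference was 0.11 ± 0.32 (SE, limma adjusted p = 0.794). Others stood near 0 on the unamplified arrays. Xlr3c had ratios of -3.96, -3.09, -3.10 and -2.97 by IVTIII, against -0.23, -0.16, -0.41 and -0.30, and Xlr3a averaged -2.35 ± 0.51 against -0.15 ± 0.12. These X-linked genes have near-identical copies, so which copy a probe reports is uncertain. Med1, a subunit of the Mediator complex, had -2.09, -2.33, -3.54 and -3.46, with arrays 1 and 2 above arrays 3 and 4, and -0.31, -0.25, -0.23 and -0.32 unamplified. Lactb2, an endoribonuclease of mitochondria, averaged -2.80 ± 0.32 against -0.54 ± 0.23. Slurp1, a secreted ligand of nicotinic receptors, averaged -2.53 ± 0.19 against -0.13 ± 0.19, and Sgcd, a sarcoglycan subunit, -2.49 ± 0.36 against 0.38 ± 0.34. None of Xlr3c, Xlr3a, Med1, Lactb2, Slurp1 and Sgcd was called in unamplified cDNA.

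Over the 29 gene lists examined, each count is to be read against 11.9% of all measured genes called higher and 10.8% called lower, with a median ratio of 0.01. The lists were drawn up with earlier results of these data known, and no test was made of any list. The plot of calls by gene list shows those with at least 7 measured members.

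**Figure D3:**
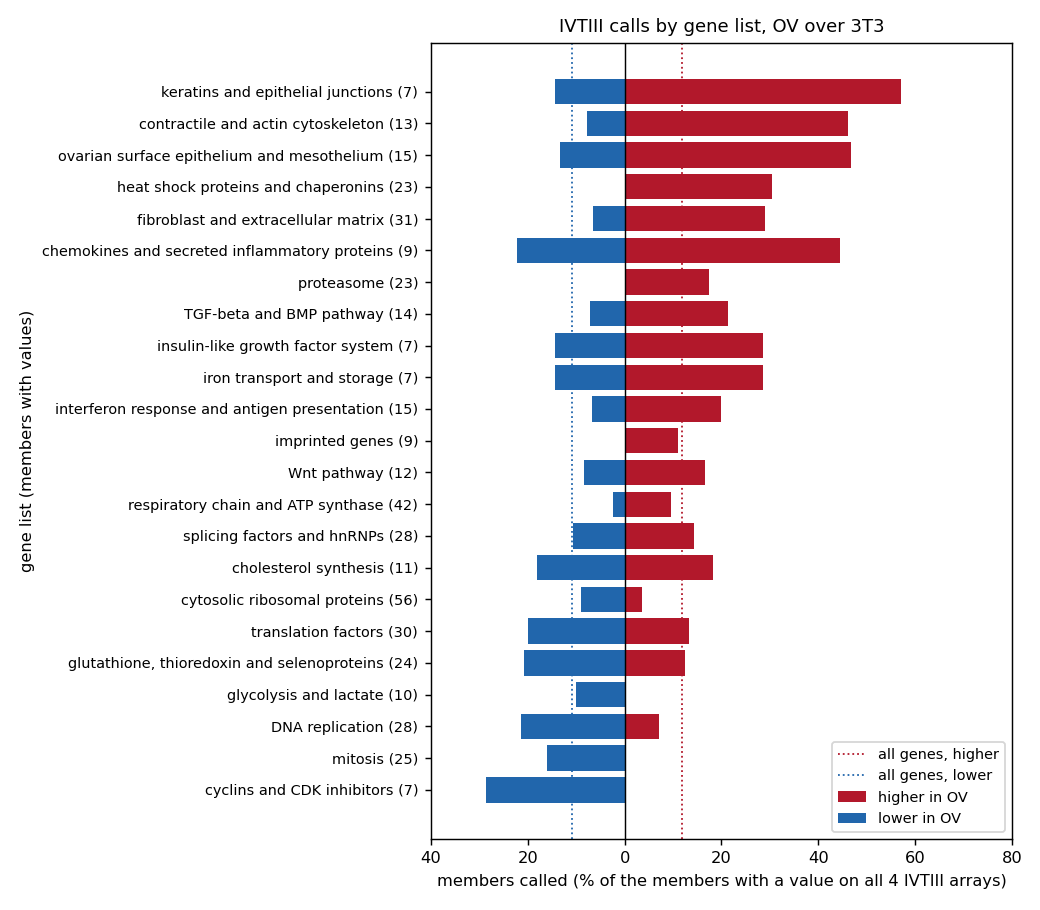
Members of each gene list called higher in OV (red, to the right) and lower in OV (blue, to the left), as a percentage of the members with a value on all 4 IVTIII arrays, whose number is in brackets. Dotted lines mark the 11.9% higher and 10.8% lower over all 3963 genes. Lists are sorted by the share higher minus the share lower, so keratins, contractile genes and ovarian surface epithelium stand at the top, and mitosis and cyclins, with no member called higher, at the bottom.

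Ovarian surface epithelium and mesothelium genes were measured for 15 of 31 members, 7 called higher and 2 lower, with a median of 0.33. Beside Bnc1 and Aldh1a1, Wt1, the transcription factor of the mesothelial lineage, had ratios of 1.53, 1.55, 1.31 and 1.76 by IVTIII, against 4.38, 3.38, 3.50 and 3.32 unamplified. Every IVTIII array was below every unamplified array, and the difference was -2.11 ± 0.22 (SE, limma adjusted p = 4.03e-05). Muc16, the mesothelial mucin that carries the CA125 epitope, averaged 1.66 ± 0.61, and its call was lost without array 2 (LOD score -0.26). Igfbp5, an insulin-like growth factor binding protein, was called lower at -1.22 ± 0.05. In unamplified cDNA, 30 of the 31 members were measured, with 18 higher and 3 lower, beside 8.88% of all genes higher and 7.45% lower. Without 1 array in turn the IVTIII counts were 5 to 7 higher and 1 to 2 lower.

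Keratins and epithelial junction genes were measured for 7 of 40 members, 4 higher and 1 lower. Krt8, a keratin of simple epithelium, stood at 1.21, 1.55, 1.01 and 1.42 by IVTIII and at 3.86, 3.41, 2.77 and 3.70 unamplified, again without overlap. F11r, the tight junction protein JAM-A, averaged 1.06 ± 0.29 by IVTIII and 2.88 ± 1.07 unamplified. Krt15 averaged 0.88 ± 0.08 and 0.79 ± 0.33, a difference of 0.10 ± 0.15 (SE) that did not pass the threshold (limma adjusted p = 0.629). Perp, a desmosome protein, was the member called lower, at -0.93 ± 0.21. The keratins Krt7 and Krt19, with unamplified means of 2.70 and 3.17, had values on 3 and 1 of the IVTIII arrays, at 0.37, 0.62 and 0.13 for Krt7 and at 0.13 for Krt19.

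Fibroblast and extracellular matrix genes were measured for 31 of 66 members, and 9 were called higher in OV and 2 lower. With the ratios taken the other way round this would read as 2 higher and 9 lower. Those called higher included Col5a2 (1.75 ± 0.61), a fibrillar collagen chain, Tnc (1.48 ± 0.31), the matrix glycoprotein tenascin C, Dcn (1.39 ± 0.20), the proteoglycan decorin, and Col11a1 (1.25 ± 0.42). In unamplified cDNA 22 members were higher and 12 lower of 58 measured, beside 8.88% of all genes higher and 7.45% lower. Dcn had IVTIII ratios of 1.15, 1.31, 1.61 and 1.46, against 4.15, 3.52, 3.98 and 4.11 unamplified. All IVTIII arrays were far below the unamplified ones. Col5a2 overlapped between the methods, at 1.20, 1.49, 1.72 and 2.62 by IVTIII and 1.61, 1.74, 1.30 and 1.91 unamplified.

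Of 40 chemokines and secreted inflammatory proteins, 9 were measured, 4 of which were higher and 2 lower. The plasma protein Saa3, an acute-phase serum amyloid, had 1.76, 2.04, 2.19 and 2.71 by IVTIII and 2.07, 1.24, 1.37 and 2.33 unamplified, overlapping, and its 2 probes gave 2.18 and 2.17. Cxcl1, which attracts neutrophils, had 1.72, 2.75, 1.93 and 3.04 by IVTIII and 0.77, 0.52, 0.58 and 0.65 unamplified. For this gene arrays 2 and 4, with OV in Cy3, were above arrays 1 and 3. Ccl9 was lower, at -1.32, -1.32, -1.61 and -1.50, against -1.55, -0.53, -1.89 and -0.97. The largest chemokine difference of unamplified cDNA, Cxcl12 with a mean of 4.51, had no value on any IVTIII array.

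The promoters of 3 of these genes, picked without a fixed rule, are shown from 1 list whose called members went both ways. They are RefSeq windows on GRCm38.p6, from 250 bases before to 50 bases after the start of the gene, read along the gene's strand. Capitals mark matches to GGG, any 2 bases and then TTTCC, on either strand, letters like those of a site of the NF-kB family of inflammatory transcription factors. The windows are Cxcl1 at chr5:90890995-90891294 on the plus strand, Saa3 at chr7:46715627-46715926 on the minus strand and Ccl9 at chr11:83578587-83578886 on the minus strand.
Cxcl1: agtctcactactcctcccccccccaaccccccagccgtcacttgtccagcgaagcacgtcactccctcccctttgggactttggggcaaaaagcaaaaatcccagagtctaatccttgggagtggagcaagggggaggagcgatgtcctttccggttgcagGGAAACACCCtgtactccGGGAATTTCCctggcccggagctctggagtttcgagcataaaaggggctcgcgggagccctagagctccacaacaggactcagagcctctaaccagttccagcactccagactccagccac
Saa3: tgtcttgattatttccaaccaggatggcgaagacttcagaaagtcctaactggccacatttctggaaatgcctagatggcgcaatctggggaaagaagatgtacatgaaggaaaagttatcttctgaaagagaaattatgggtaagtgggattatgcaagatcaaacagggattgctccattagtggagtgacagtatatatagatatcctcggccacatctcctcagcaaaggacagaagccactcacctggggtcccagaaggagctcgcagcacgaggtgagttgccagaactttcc
Ccl9: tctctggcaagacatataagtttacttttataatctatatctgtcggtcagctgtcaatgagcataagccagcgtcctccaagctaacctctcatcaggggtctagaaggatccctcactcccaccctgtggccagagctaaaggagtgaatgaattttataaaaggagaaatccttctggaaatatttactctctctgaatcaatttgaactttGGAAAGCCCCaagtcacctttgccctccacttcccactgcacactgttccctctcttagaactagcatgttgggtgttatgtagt
Cxcl1, higher in OV, held 2 matches, which began 89 and 71 bases before the start and did not overlap. Ccl9, lower in OV, held 1, beginning 35 bases before it, and Saa3, higher in OV, held none. Of the 6 called members of the list, 5 had a window and 2 of these held a match, and over all 32851 windows of this length the share was 1.63%. Both windows with a match are among those shown. The windows of Icam1 and Mif, also called, held none, and Ccl2 had no window. A match describes the letters of the window and was not tested as a site.

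Complement genes were measured for 4 of 17 members with 2 higher, C2 (1.97 ± 0.46), the protease component of the classical pathway, and Cd55 (1.22 ± 0.22), which limits complement on the cell surface. The probes of Cd55 differed, at 2.34 and 0.09. In the interferon and antigen presentation list 3 of 15 measured members were higher and 1 lower. B2m, the light chain of class I molecules, averaged 1.10 ± 0.11 by IVTIII and 0.47 ± 0.24 unamplified. Usp18, the protease that removes ISG15, was called lower at -0.93 ± 0.15 and was not called in unamplified cDNA, at 0.27 ± 0.21.

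Of the genes of DNA replication and of mitosis, more were called lower than higher in OV. Of 28 replication genes measured, 2 were higher and 6 lower with a median of -0.17, and of 25 mitosis genes none was higher and 4 were lower with a median of -0.30. In unamplified cDNA, 13 of 41 replication genes and 20 of 36 mitosis genes were called lower, beside 7.45% of all genes. Over the 25 mitosis genes measured by both, the medians were -0.30 by IVTIII and -0.83 unamplified, and 19 differed between the methods, 17 of them with the higher ratio by IVTIII, beside 48.5% of all genes differing (25.1% with the higher and 23.4% with the lower IVTIII ratio). Pole2, a subunit of DNA polymerase epsilon, had -1.27, -1.49, -1.41 and -1.44 by IVTIII and -1.31, -0.73, -1.55 and -1.35 unamplified, overlapping. Rpa2, a subunit of the single-strand binding protein, averaged -1.45 ± 0.27 and was near 0 unamplified (range -0.04 to 0.06). E2f1, the S-phase transcription factor, averaged -1.36 ± 0.21 against -0.57 ± 0.27.

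Of the 4 mitosis calls, 3 were lost when 1 array was left out. Ect2, an exchange factor of cytokinesis, had -1.04, -0.89, -1.01 and -1.02 by IVTIII and -0.49, -0.43, -0.51 and -0.42 unamplified, both narrow and apart. Hmmr, a spindle protein, averaged -0.98 ± 0.31 and lost its call without array 2 (LOD score -0.63). Racgap1, a GTPase-activating protein of cytokinesis, averaged -0.60 ± 0.19 and lost its call without any 1 array (LOD score -1.86 to -0.05). Smc2, a condensin subunit, split between arrays 1 and 2, at -0.72 and -0.92, and arrays 3 and 4, at -1.85 and -1.87, and lost its call without array 2, 3 or 4 (LOD score -1.18 to -0.52). With 1 array left out in turn, 1 to 3 members of the list were called lower, fewest without array 2 and most without array 1, and with the assumed pairs averaged 1 was. Among cyclins and CDK inhibitors with their regulators, 2 of 7 measured were lower and none higher, and Myc, the growth-promoting transcription factor, led with -1.26 ± 0.15.

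Of the 29 lists, those of the translation machinery were measured most completely. Of 63 cytosolic ribosomal protein genes on the array, 56 (88.9%) had values on all 4 IVTIII arrays, against 26.3% of all genes, and of translation factors 30 of 36 did. Ribosomal proteins centered on 0.01, with 2 higher and 5 lower, or 2 and 2 with the assumed pairs averaged. The 2 higher, Rpl3 and Rpl23, were narrow over the IVTIII arrays, at 1.25, 1.39, 1.24 and 1.13 for Rpl3 and 1.20, 1.01, 1.23 and 1.17 for Rpl23. Neither was called in unamplified cDNA, where they averaged -0.39 ± 0.11 and 0.06 ± 0.09 over the same probes. Rpsa, the laminin receptor protein of the small subunit, was called lower at -1.73 ± 0.27 although its probes differed, at -2.61 and -0.86, and Rps26 at -1.19 ± 0.20. Ribosomal protein genes have many processed pseudogenes, so a probe may report more than 1 locus.

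Proteasome and chaperone genes were higher or not called, and none was lower. Of 23 proteasome genes, 4 were higher and none lower with a median of 0.14, and over the 22 measured by both methods 13 differed, all with the higher ratio by IVTIII, beside 48.5% of all genes differing and 25.1% with the higher IVTIII ratio. Psma3, a subunit of the core particle, had 1.30, 0.89, 1.01 and 0.98 by IVTIII and -0.69, -0.49, -0.73 and -0.51 unamplified. The sign was opposite on all arrays, and the difference was 1.65 ± 0.12 (SE, limma adjusted p = 5.23e-06). Psma1 (0.79 ± 0.13) and Psmd10 (0.93 ± 0.17) were also called. Of 23 heat shock and chaperonin genes, 7 were higher and none lower. Dnaja1, an Hsp40 co-chaperone, averaged 1.85 ± 0.44 and P4hb, protein disulfide isomerase, 1.72 ± 0.12, with unamplified means of 0.47 ± 0.10 and 1.42 ± 0.15. Hspa4, an Hsp110 family member, averaged 1.49 ± 0.34 by IVTIII and -0.28 ± 0.12 unamplified, and Hspb1, the small heat shock protein, 1.35 ± 0.19 and 1.84 ± 0.50. Without 1 array in turn, 3 to 5 proteasome and 6 to 7 chaperone genes were called higher.

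In the signaling lists few members were measured. Grem1, a secreted BMP antagonist, had 1.47, 2.01, 1.55 and 2.20 by IVTIII and 2.32, 1.34, 1.90 and 2.34 unamplified, overlapping, and was 1 of 3 members of the TGF-beta and BMP list called higher of 14 measured, with 1 lower. Bmpr2, the type II BMP receptor, averaged 1.38 ± 0.41 and was not called unamplified, at 0.07 ± 0.28. A further Bmpr2 probe had values on arrays 1 and 2 only, 0.30 and 0.66, where the probe used read 1.02 and 1.06. In the Wnt list 2 of 12 were higher, Sfrp1 and Porcn (1.10 ± 0.26), the acyltransferase of Wnt proteins, and the coreceptor gene Lrp5 was lower at -0.87 ± 0.04. Htra1, a secreted protease that acts on growth factor binding proteins, averaged 1.50 ± 0.12. Among glutathione, thioredoxin and selenoprotein genes, 3 of 24 were higher and 5 lower, Sod3, the extracellular superoxide dismutase of this list, being lowest at -1.81 ± 0.59. Contractile and actin genes were higher for 6 of 13 members and lower for 1, led by Myh10, a nonmuscle myosin, at 1.66 ± 0.32. A further Myh10 probe had 1 IVTIII value, -0.06 on array 1, where the probe used read 1.33. When array 1, 2 or 3 was left out, 3 members of this list were higher and none lower. With the assumed dye-swap pairs averaged, 2 were higher.

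The ratios of IVTIII and of unamplified cDNA were compared directly at the 4216 probes with a value on all 8 arrays. Across probes the averaged ratios correlated at r = 0.508 with a slope of IVTIII on unamplified cDNA of 0.58, and single IVTIII arrays gave r between 0.477 and 0.491. Probes are not independent replicates, and both methods started from the same RNA pools. At 342 probes called in both, r was 0.799 and the slope 0.86. Choosing probes by a call in both leaves out those near 0 in either method, which by itself raises r. These values are therefore not comparable with those over all probes. Of 921 IVTIII calls among these probes, 322 were also called in unamplified cDNA with the same sign, 35.0% of the IVTIII calls (exact 95% CI 31.9 to 38.1, counting error only) and 36.7% of the 877 unamplified calls (33.5 to 40.0). A further 20 probes were called in both with opposite signs. Without array 1 of the unamplified set, which lowered its calls to 458, the shared calls were 194.

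**Figure D4:**
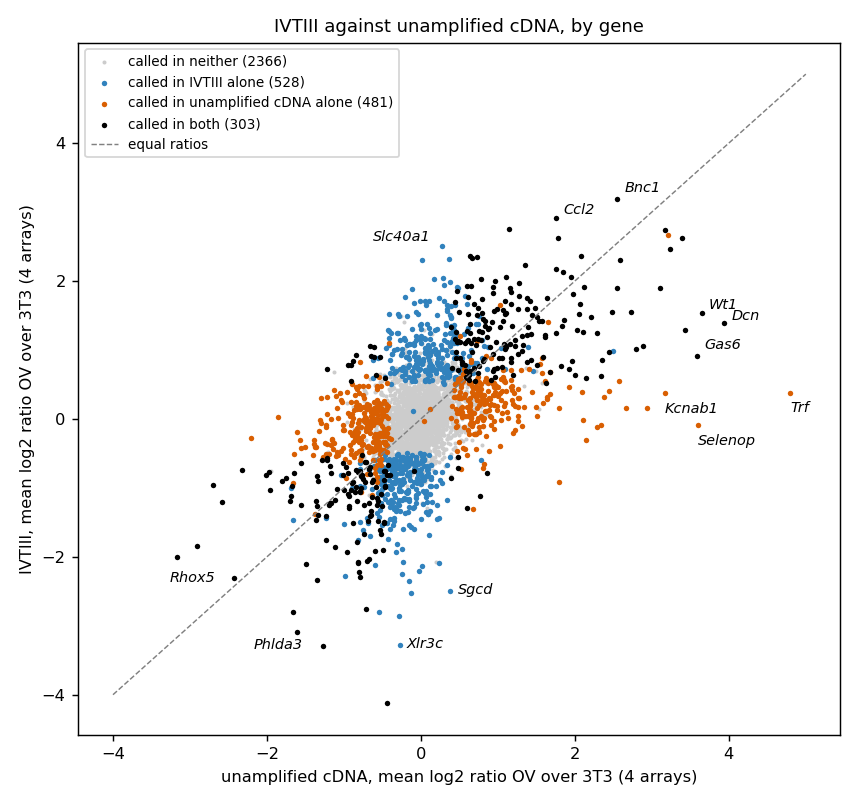
Mean log2 OV over 3T3 ratio of IVTIII (vertical axis) against unamplified cDNA (horizontal axis) for 3678 genes, each a mean of 4 arrays. Points are colored by where the gene was called (528 in IVTIII alone, 481 in unamplified cDNA alone, 303 in both), and the dashed line marks equal ratios. Genes on the far right, such as Trf and Selenop, have IVTIII ratios near 0, and genes such as Slc40a1, Xlr3c and Sgcd lie near 0 on the horizontal axis only.

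The ratio differed between IVTIII and unamplified cDNA at 2002 of the probes (limma, adjusted p under 0.05; 47.5%). By gene, 1782 of 3678 had different ratios by IVTIII and unamplified cDNA at the same threshold (48.5%), 922 with the higher ratio by IVTIII (25.1%) and 860 with the lower (23.4%), and the arrays of the groups did not overlap for 1657 (45.1%). Among 51 genes that differed more than 4-fold between the lines in unamplified cDNA, 49 were smaller in size by IVTIII and 9 were above 4-fold there as well. Among 53 genes above 4-fold by IVTIII, 46 were smaller in unamplified cDNA and 31 were under 2-fold. Each set was chosen on its own method's ratio, which by itself places its members further from 0 in that method.

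The 8 genes with the lowest IVTIII ratio relative to unamplified cDNA were led by Trf and Selenop. These 8, and the 8 highest below, were chosen among genes that passed the threshold without overlap of the arrays, so neither is a result about them. Trf, the iron carrier transferrin, had 0.21, 0.54, 0.41 and 0.37 by IVTIII, against 5.01, 4.94, 4.41 and 4.81 unamplified, a difference of -4.41 ± 0.14 (SE, limma adjusted p = 2.57e-08). Selenop, the selenium transport protein, had 0.08, -0.08, -0.25 and -0.12 by IVTIII, against 3.66, 3.27, 3.96 and 3.50. Both were called in unamplified cDNA and neither by IVTIII, and the arrays of the methods lay far apart. Kcnab1, a potassium channel subunit, averaged 0.37 ± 0.28 by IVTIII and 3.17 ± 0.43 unamplified. Gas6, a ligand of TAM receptor kinases, averaged 0.91 ± 0.31 and 3.58 ± 0.57, and its IVTIII call was lost without array 2, 3 or 4 (LOD score -0.95 to -0.23). Aldh1a7, a close relative of Aldh1a1, was at -0.72, -1.55, -0.61 and -0.80 by IVTIII and 2.01, 1.53, 1.59 and 2.05 unamplified, with opposite signs on every array. It was not called by IVTIII with all arrays (LOD score -0.29) and was called without array 2 (0.30). Xlr3c, Sgcd and Med1, given above, completed the 8.

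The 8 genes with the highest IVTIII ratio relative to unamplified cDNA included Slc40a1, given above, and Nap1l1, given below. Hnrnpdl, an RNA-binding protein, had 1.77, 2.39, 2.19 and 2.87 by IVTIII and -0.03, 0.13, -0.19 and 0.16 unamplified, a difference of 2.29 ± 0.20 (SE, limma adjusted p = 1.66e-05). Asb1, a subunit of ubiquitin ligases, averaged 1.88 ± 0.46 against -0.11 ± 0.18, and Scd2, a fatty acid desaturase, 1.76 ± 0.24 against -0.20 ± 0.06. A further Asb1 probe had 1 IVTIII value, 0.18 on array 3, where the probe used read 1.36. Zmym2, a zinc finger protein, averaged 2.33 ± 0.49 against 0.37 ± 0.11, and Prdx4, a peroxiredoxin of the secretory pathway, 1.53 ± 0.25 against -0.41 ± 0.26. None of these 5 was called in unamplified cDNA. That their arrays did not overlap between the methods was a condition of the choice. Sypl, a synaptophysin-like membrane protein, had an IVTIII ratio nearer to 0, at -0.28 ± 0.14 by IVTIII and -2.20 ± 0.71 unamplified, called only in unamplified cDNA.

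Called in both with opposite signs were 19 genes, and the 5 with the largest differences were examined. Nap1l1, a histone chaperone, had 0.66, 0.71, 0.76 and 0.74 by IVTIII, against -1.45, -1.06, -1.08 and -1.30 unamplified, narrow in both and opposite on all arrays, but its IVTIII call was lost when the assumed dye-swap pairs were averaged (LOD score -0.45). Hspd1, the mitochondrial chaperonin, averaged 0.93 ± 0.23 by IVTIII and -0.85 ± 0.32 unamplified, and Mmp2, a matrix metalloproteinase, 0.84 ± 0.19 and -0.89 ± 0.17. Heg1, a transmembrane mucin-like receptor, averaged -1.29 ± 0.21 and 0.59 ± 0.20. A further Heg1 probe had 1 IVTIII value, -0.03 on array 1, where the probe used read -1.13. Rph3a, a synaptic vesicle protein, averaged -1.12 ± 0.46 and 0.77 ± 0.25, and its IVTIII call was lost without array 2, 3 or 4 (LOD score -0.99 to -0.04).

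More calls of unamplified cDNA lacked an IVTIII ratio than were measured and not called. Of its 1963 called probes, 604 had a value on no IVTIII array (30.8%), 482 on 1 to 3 (24.6%) and 877 on all 4 (44.7%), of which 535 were not called by IVTIII. Of the probes not called in unamplified cDNA, 30.6% had all 4 IVTIII values. Among the 20 genes that differed most in unamplified cDNA, 10 had values on all 4 IVTIII arrays, all 10 smaller in size, and 7 of these were called. These 20 genes were chosen on the unamplified ratio, which by itself places them further from 0 in unamplified cDNA. Those without any IVTIII value included Cxcl12, Igfbp3, an insulin-like growth factor binding protein, Cxadr, a junction protein and virus receptor, and Upk1b, an uroplakin of the mesothelial surface. Upk1b had unamplified ratios of 4.50, 4.06, 3.90 and 4.56, and Igfbp3 had 4.11, 4.22, 2.77 and 3.82. Atp1b1, the beta subunit of the sodium pump, had IVTIII values on 2 arrays alone, 0.41 and 0.17, against 4.34, 4.15, 3.74 and 4.29 unamplified. Clu, the secreted chaperone clusterin, had 0.56 and 0.34 on its 2 arrays, against a mean of 3.41 unamplified. In the other direction 1 called IVTIII probe had no value on any unamplified array and 88 had 1 to 3. This was a probe of Ecm2, an extracellular matrix protein, with -0.86, -1.53, -0.97 and -0.96.

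The 4 IVTIII arrays were not equally alike. Arrays 1 and 2 correlated at r = 0.893 and arrays 3 and 4 at 0.889, and the other pairings at 0.804 to 0.863. The mean of arrays 1 and 2 minus the mean of arrays 3 and 4 correlated at r = 0.692 across 4105 probes with a separate readout, the ratio of OV replica 1 over OV replica 2 on the 2 IVTIII replica arrays. The same difference taken as arrays 1 and 4 minus 2 and 3 gave r = -0.144, and as arrays 1 and 3 minus 2 and 4, which is the dye orientation, 0.065. On unamplified arrays the difference of 1 and 2 from 3 and 4 gave -0.0048. Whether the replica arrays held the same cRNA as the OV over 3T3 arrays is not given in the sources used here. These r are descriptions across probes.

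**Figure D5:**
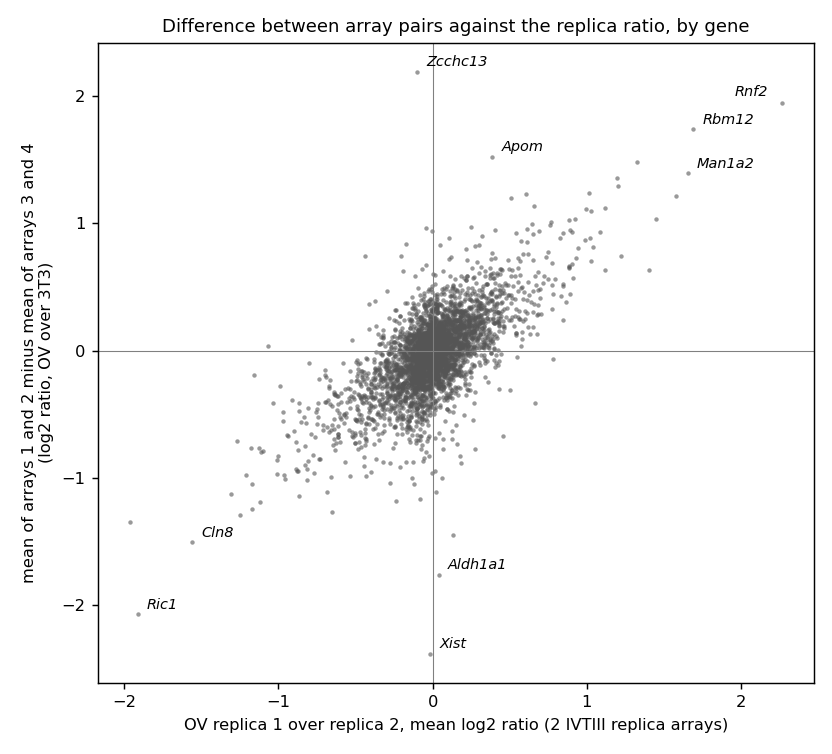
Difference between the mean of IVTIII arrays 1 and 2 and the mean of arrays 3 and 4 (vertical axis, log2 ratio OV over 3T3) against the OV replica 1 over replica 2 ratio on 2 separate IVTIII arrays (horizontal axis, log2), one point per gene, 3561 genes. Rnf2, with a pair difference of 1.95, and Ric1, with -2.07, lie at the ends of the diagonal cloud, while Xist, Aldh1a1 and Zcchc13 differ between the pairs with replica ratios near 0.

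Between the pairs, 66 of 4599 probes differed more than 2-fold, and of 54 of them with replica values 50 had the replica ratio of the same sign, 26 above 2-fold. Rnf2, a Polycomb ubiquitin ligase chosen after its values were seen, had -1.11, -1.09, -3.17 and -2.91, with arrays 1 and 2 far above arrays 3 and 4, and replica ratios of 2.72 and 1.81. Ric1, a partner of a Rab6 exchange factor chosen in the same way, had -2.40, -2.26, -0.33 and -0.20, and replica ratios of -1.70 and -2.13. Smc2 followed as well, with replica ratios of 1.19 and 0.66. The 4 genes with the widest range over the 4 arrays, which the rule for named genes had picked, did not follow. Zcchc13 had 3.10, 2.08, 0.66 and 0.14 with replica ratios of -0.17 and -0.03, Xist had replica ratios of 0.25 and -0.27, and Aldh1a1 had 0.23 and -0.15. Tmbim6, an inhibitor of Bax-induced cell death, owed its range to array 1, at -2.74 against -0.13, -0.03 and -0.50. No probe had a dye effect at an adjusted p under 0.05 in limma, and 286 of 4599 had one at an unadjusted p under 0.05.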

How the data were processed

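The deposited values were log2 ratios of the dyes of each spot on spotted arrays of 65-mer oligonucleotides. The authors quantified the scans with GenePix Pro, subtracted the background and applied limma's lowess normalization within print-tip groups of an array, the version of which is not given in the sources used here, so each array was centered near 0 before comparison. Control probes (231 of 21997) were left out, and ratios of arrays with OV in Cy3 were turned. A probe was tested where all 4 arrays had a value. Means over 4 arrays were fitted in R 4.3.3 with limma 3.58.1 (lmFit, eBayes, prior proportion 0.01), and a LOD score above 0 was a call, as in the study. Probes of 1 gene were averaged per array before a fit by gene. IVTIII was compared with unamplified cDNA in 1 limma fit with Benjamini-Hochberg adjustment over all probes or genes. The fits were tested on simulated data. Correlations with unamplified cDNA and exact intervals were computed in R. Exact permutation tests were computed in Python 3.11.15 with SciPy 1.17.1, and the correlation between 2 probes of a gene with NumPy 2.4.6.

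Genes were named by rule: the 12 highest and 12 lowest called genes whose arrays shared a sign, those known only by a clone name being left out, the 8 highest and 8 lowest differences from unamplified cDNA, 5 genes called with opposite signs, up to 4 called members per gene list, 4 genes of widest range, genes measured by 1 method alone and the checks of direction. The 8 highest and 8 lowest differences were taken among genes at a limma adjusted p under 0.05 whose arrays did not overlap between the methods. The members and the gene lists were chosen with earlier results of these data known. Alternatives were another prior, robust fitting, a dye term, rescaled and recentered arrays, assumed dye-swap pairs, other value minimums and thresholds, and each array left out.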

Additional observations from a re-analysis of the deposited data

Results flagged for a closer look

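Of 90 named genes, 4 had 1 IVTIII array far from the other 3, where chance flags about 1 in 20 groups. Xlr3c was at -3.96 on array 1, against -3.10 to -2.97 on the others. Eif2s3y was at -0.69 on array 1, against -0.32 to -0.29, and Ecm2 at -1.53 on array 2, against -0.97 to -0.86. Mbp was at 1.00 on array 2, against 0.57 to 0.62 on the others, and its call was lost without that array. Among the unamplified arrays, array 2 had a CR of 0.840, against 1.05 to 1.07 on the others.

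Of 88 named genes with values on all 8 arrays, 62 had an OV over 3T3 ratio that differed between IVTIII and unamplified cDNA in the limma fit over all genes, with no overlap of the arrays. Over all genes 48.5% differed, and the arrays of 45.1% did not overlap. Some of the 88 were named because they differed in this way, so the 62 are no result about them. The 20 given here were picked by the size of the difference between the methods, so it describes them and supports nothing further. The 8 highest and 8 lowest among them also had to pass the threshold without overlap. The log2 difference, IVTIII minus unamplified, was -4.41 for Trf, -3.69 for Selenop, -3.00 for Xlr3c, -2.87 for Sgcd, -2.80 for Kcnab1, -2.72 for Aldh1a7, -2.67 for Gas6 and -2.57 for Med1. It was 2.29 for Hnrnpdl, 2.24 for Slc40a1, 2.00 for Asb1, 1.97 for Scd2, 1.96 for Zmym2, 1.94 for Prdx4, 1.94 for Nap1l1 and 1.92 for Sypl. Among genes called with opposite signs it was -1.89 for Rph3a, -1.88 for Heg1, 1.77 for Hspd1 and 1.73 for Mmp2.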

How the results depend on the processing

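The count of 1010 IVTIII calls rested on the threshold and on how the arrays were treated. It was 1584 (833 higher, 751 lower) at a prior proportion of 0.05 and 2551 (1298 higher, 1253 lower) at an adjusted p under 0.05 in place of a LOD score above 0. Averaging arrays 1 and 2, and 3 and 4, as assumed dye-swap pairs gave 610 (336 higher, 274 lower), and averaging 1 and 4, and 2 and 3, gave 2192 (1141 higher, 1051 lower). The correlation within pairs, estimated by limma, was 0.071 for the first pairing and -0.617 for the second. Each average of the second pairing held 1 array from each of the most alike pairs (1 with 2, and 3 with 4). This took the difference between those pairs out of the spread, so 2192 is not an equal alternative to 610. With 1 array left out the count was 649 to 828 (321 to 451 higher, 328 to 402 lower), lowest without array 2. The 2002 probes that differed between IVTIII and unamplified cDNA became 1290 (668 with the higher IVTIII ratio, 622 with the lower) at an adjusted p under 0.01 and 1600 to 1903 (818 to 1002, 782 to 947) with 1 array of either kind left out. A replicate block on the hybridization number gave 1886 (969 and 917). Arrays of the same number deviated together by r of -0.049 to 0.056, so the numbers did not pair the arrays. With the assumed pairs averaged, an alternative chosen after seeing the data, the count was 1435. Calls shared with unamplified cDNA were 1177, or 50.3% of the IVTIII calls, at an adjusted p under 0.05 in both, 175 among probes measured on all arrays of every method, and 194 to 303 (21.1% to 40.7%) with 1 array left out. The CR of the averaged arrays was 0.973 from the median absolute deviation, and 1.31 to 1.37 with 1 array left out. The correlation with unamplified cDNA was 0.466 by Spearman's rho, 0.502 over probes measured by every method, 0.502 by gene and 0.503 to 0.508 with 1 array left out.

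For 90 named genes under 10 alternatives, counted once per gene and alternative, the call was unchanged 858 times, lost 32 times and gained 10 times. No ratio changed direction. Losses recurred in the same genes, such as Racgap1, Smc2 and Mbp. Of the gains, 7 came with an adjusted p under 0.05 in place of the LOD score. The 20 differences kept their side of the threshold in all 260 repeats. Those repeats did not include averaged pairs, and the 20 were picked for their differences in the same data. The description by transcript length was not run because no length was at hand. Signal over background is unknown here because no spot intensities were analysed, and the cause of these shifts was not tested.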
